A study of Mus musculus with 24 samples.

Results

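The liver response shared by a glucose drink and a fructose drink was examined by setting 12 sugar-fed mice, taken as 1 group, against 6 mice that drank tap water. These 18 mice belong to a set of 24, and all 24 were male wild-type C57Bl/6J animals, 8 weeks old and fed chow, of which the remaining 6 were fasted for 24 hours and entered here only through the estimate of the spread between mice and the filter on dim probes. The fed mice drank plain tap water (6 mice), water with 20% glucose (6 mice) or water with 20% fructose (6 mice) for 24 hours, and livers were taken at ZT16, that is 16 hours after lights on. RNA of each liver was hybridised to its own 1-colour Agilent array, so n is the number of mice. The difference given throughout is the mean of the glucose and fructose group means minus the water mean, and each sugar therefore had the same weight.

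Liver cells take up both sugars, phosphorylate them and pass the carbon to glycolysis, glycogen, the pentose phosphate pathway and new fatty acids. The transcription factor ChREBP senses the resulting sugar phosphates and acts on carbohydrate response elements of genes for glycolysis and lipid synthesis, and ATF4 acts on genes for amino acid synthesis when amino acids are short or cells are stressed. Fgf21, a hormone released by the liver, is known as a target of both factors, and enzymes that break down amino acids or foreign compounds are known to depend strongly on the nutritional state.

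The upstream stretches below are shown because they belong to genes that rose on sugar and hold letters that ATF4 or ChREBP is known to bind. They come from RefSeq on GRCm38.p6, are written 5′ to 3′ on the strand of the gene, and have the match in capitals. The ATF4 letters were TGATGNAA on either strand, and the carbohydrate response element was CACGNG and CNCGTG with 5 bases between them, which reads the same on both strands.
Fgf21, chr7:45615582-45615669, minus strand: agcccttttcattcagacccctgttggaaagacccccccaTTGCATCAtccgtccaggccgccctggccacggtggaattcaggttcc
Nupr1, chr7:126625533-126625620, minus strand: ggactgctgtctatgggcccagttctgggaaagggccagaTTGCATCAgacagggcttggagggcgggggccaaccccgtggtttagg
Pck2, chr14:55540123-55540210, plus strand: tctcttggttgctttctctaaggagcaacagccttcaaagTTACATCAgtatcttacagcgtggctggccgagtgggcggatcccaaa
Pklr, chr3:89136413-89136509, plus strand: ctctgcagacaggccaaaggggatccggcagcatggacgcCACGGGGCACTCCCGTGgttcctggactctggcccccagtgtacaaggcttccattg
Counted from the annotated start, with the first base upstream as -1, the match of Fgf21 ran from -139 to -132 and that of Pklr from -170 to -154. In windows of 250 bases before to 50 bases after each start, the ATF4 letters occurred in 3.97% of all 32851 promoters and in at least 1 promoter of 4.51% of all genes in the table. Of the genes described below as called, 263 of 388 were in that table, and the letters occurred in 8 of 121 that rose (6.61%) and in 6 of 142 that fell (4.23%), against the 4.51% of all genes. The carbohydrate response element was rare, with 15 of 32851 promoters (0.0457%), and 2 genes that rose held it, Pklr and Fam124a, the latter named here after its values were seen. A match describes the letters only.

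Of 23966 genes tested, 388 (1.62%) differed between sugar and water at an adjusted p under 0.05 (limma, Benjamini-Hochberg over all genes tested), and such genes are referred to as called. The rises numbered 184 (0.768%) and the falls 204 (0.851%), so that 47.4% of the calls were rises. That split moved with the scaling of the arrays: 57.2% of the calls were rises after quantile normalization (245 rises and 183 falls), and 61.4% after centring each array on its median (89 and 56). Most changes were small. Of the calls, 30 rises and 9 falls reached 2-fold, the median absolute difference was 0.42 on the log2 scale and the lowest was 0.15. Fitted without the fasted mice, on the same genes, 529 were called (252 rises and 277 falls), among them 336 of the 388. Over all genes tested the median difference was -0.0078. The difference had the same sign for glucose and for fructose in all 388 called genes, a count that taking the mean of both sugars favours. With single sugars, 62 of the 388 were called for both, 107 for glucose and not fructose, and 93 for fructose and not glucose. All 12 sugar-fed mice lay above all 6 water-fed mice for 60 genes (0.25% of those tested), of which 51 were called, and below all of them for 40 genes (0.167%), of which 23 were called.

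**Figure D1:**
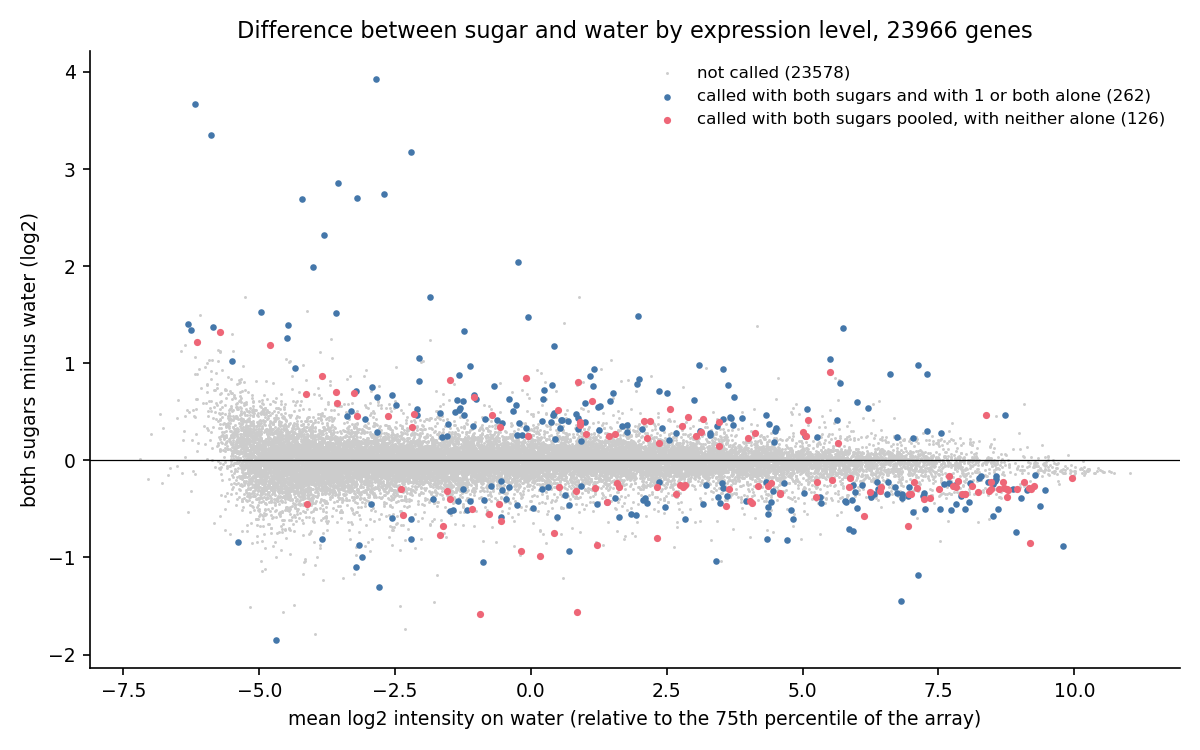
Difference between both sugars and water (log2, vertical) against the mean log2 intensity on water relative to the array's 75th percentile (horizontal), 1 point per gene for 23966 genes; colours mark genes not called, 262 called also with at least 1 sugar alone, and 126 called in the pooled comparison alone. The highest point, Fgf21, lies at 3.93, and of the genes in red the furthest from 0 is Cyp2b9 at -1.58.

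Among genes well above background on water, the largest rise was that of Fgf21. Its log2 intensity, relative to the array's 75th percentile as for all levels below, had a lowest, median and highest value of -3.87, -2.62 and -2.07 on water, of 0.41, 1.43 and 2.56 on glucose, and of -0.43, 0.40 and 1.75 on fructose. The groups on sugar did not overlap the water group, and the pooled difference was 3.93 ± 0.44 (SE, n = 12 and 6, limma adjusted p = 2.08e-05). Fut1, which encodes a fucosyltransferase, lies beside Fgf21. The lowest coordinates of the 2 genes are chr7:45617606 for Fut1 and chr7:45613890 for Fgf21, which is on the minus strand (GRCm38.p6). Fut1 was well above background on none of the 6 water arrays and on all 12 sugar arrays, which makes it at least 5.65-fold higher on sugar (adjusted p = 1.01e-06). With 2 genes this close, the arrays do not show whether each is transcribed on its own.

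Enzymes that make serine rose strongly. Psat1, the aminotransferase of serine synthesis, had lowest, median and highest values of -3.06, -2.17 and -1.55 on water, of 0.64, 1.38 and 2.19 on glucose, and of -0.79, 0.75 and 1.19 on fructose. The difference was 3.17 ± 0.27 (adjusted p = 1.01e-06), and all 12 sugar arrays lay above the water arrays. Phgdh, the first enzyme of that pathway, ranged from -2.98 to -2.13 on water (median -2.75), from -0.30 to 2.13 on glucose (median 0.49) and from -1.80 to 0.41 on fructose (median -0.25). It too stood apart from water in every sugar-fed mouse, with a difference of 2.74 ± 0.31 (adjusted p = 2.08e-05). Psph, the last enzyme of the pathway, rose by 0.55 ± 0.083 (adjusted p = 0.00111), with 8 of 12 sugar arrays above the highest water array. Of 19 measured genes of serine synthesis and one-carbon metabolism, 5 rose and 2 fell, with a median difference of 0.041. Over all genes 0.768% rose and 0.851% fell. The mitochondrial folate enzymes Aldh1l2 and Mthfd2 rose by 1.53 ± 0.28 and 1.05 ± 0.18, although Aldh1l2 was well above background on only 1 of 6 water arrays and 11 of 12 sugar arrays. Bhmt, which uses betaine to remethylate homocysteine, went the other way and fell by 0.85 ± 0.20 (adjusted p = 0.0337). Bhmt was called in the pooled comparison alone, and 10 of 12 sugar arrays lay below the lowest water array.

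Genes known to respond to ATF4 rose in part. Of 19 measured members of that list 5 rose and none fell (median 0.25), against 0.768% rises over all genes, and the list holds Fgf21, Aldh1l2 and Nupr1. Atf5, a stress-induced transcription factor, had lowest, median and highest values of 6.98, 7.14 and 7.23 on water, of 7.95, 8.30 and 8.53 on glucose, and of 7.71, 7.92 and 8.16 on fructose. No sugar-fed mouse overlapped the water group, with a difference of 0.98 ± 0.090 (adjusted p = 1.78e-06). Pck2, the mitochondrial form of an enzyme of glucose synthesis, whose promoter is printed above, ranged from 0.05 to 0.40 on water, from 0.97 to 1.55 on glucose and from 0.46 to 1.02 on fructose. It also separated all sugar-fed from all water-fed mice, with a rise of 0.73 ± 0.097 (adjusted p = 0.000232). Nupr1, a stress-induced chromatin protein, rose by 1.47 ± 0.18 by its brightest probe, while the lowest of its 2 probes gave -0.05, so the rise rests on 1 probe. Eif4ebp1, an inhibitor of translation initiation, was called in the pooled comparison alone: it ranged from 4.98 to 5.15 on water, from 5.21 to 5.51 on glucose and from 5.21 to 5.55 on fructose. Its difference was small, 0.25 ± 0.063 (adjusted p = 0.0443), yet all 12 sugar arrays lay above the water arrays. Asns, asparagine synthetase, differed by 1.41 ± 0.38 with an adjusted p of 0.0553 and was not called. Of 20 aminoacyl-tRNA synthetases 3 rose and 1 fell (median 0.091). Mars1, for methionine, ranged from 2.28 to 2.48 on water, from 2.74 to 3.05 on glucose and from 2.5 to 2.75 on fructose. All 12 sugar arrays of Mars1 lay above the water arrays, its rise was 0.33 ± 0.063 (adjusted p = 0.0101), and the call held with any 1 fed mouse left out. Cars and Gars rose by 0.45 ± 0.096 and 0.24 ± 0.047, and Wars fell by 0.35 ± 0.087 as a call of the pooled comparison alone (adjusted p = 0.0428).

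Sugar metabolism and lipid synthesis formed the third group of rises. Of 16 measured ChREBP targets 7 rose and none fell (median 0.36), of 10 genes of the pentose phosphate pathway and NADPH supply 4 rose (median 0.31), and of 18 genes of fatty acid synthesis 5 rose (median 0.39). Over all genes 0.768% rose. The lists share members, such as Me1 and Acly, and the ChREBP list also holds Fgf21, which the ATF4 list above counts as well. Pklr, liver pyruvate kinase, whose promoter is printed above, had lowest, median and highest values of 1.59, 2.10 and 2.23 on water, of 2.63, 2.96 and 3.34 on glucose, and of 2.30, 2.63 and 3.21 on fructose. All sugar arrays were above the water arrays, with a difference of 0.84 ± 0.16 (adjusted p = 0.00867). Khk, the kinase that phosphorylates fructose, ranged from 8.55 to 8.82 on water (median 8.77), from 9.01 to 9.40 on glucose (median 9.20) and from 9.08 to 9.40 on fructose (median 9.13). The groups did not overlap, and the rise of 0.47 ± 0.065 (adjusted p = 0.000324) was of like size for both drinks, 0.48 on glucose and 0.45 on fructose. The 95% interval of fructose minus glucose for Khk ran from -0.18 to 0.13.

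Gpi1, which interconverts glucose 6-phosphate and fructose 6-phosphate, rose by 0.89 ± 0.096 (adjusted p = 2.08e-05), and its 4 probes gave 0.89 to 1.09. Me1, malic enzyme, a source of NADPH, rose by 1.36 ± 0.17 (adjusted p = 7.25e-05), from between 5.51 and 5.99 on water to between 6.43 and 7.85 on either sugar. Acaca, the enzyme of the committed step of fatty acid synthesis, rose by 0.79 ± 0.12 (adjusted p = 0.000875), with 6 probes between 0.75 and 1.11. Both genes separated all sugar-fed from all water-fed mice. Acly, which makes cytosolic acetyl-CoA, rose by 0.89 ± 0.16, and Pnpla3, a lipid droplet protein, by 2.04 ± 0.46 (adjusted p = 0.0275). Pnpla3 was variable, from -1.84 to 0.52 on water and from -0.83 to 3.12 on sugar, and its call was lost without water mouse 2 or 5, where the difference lay within 1.73 to 2.26 as for any 1 mouse left out. Tkt and Pgd of the pentose phosphate pathway rose by 0.60 ± 0.083 and 0.69 ± 0.11, but the second probe of each gave 0.04 and -0.12.

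Of the fatty acid and triglyceride lists, Elovl6 and Mttp were called only when the sugars were pooled. Elovl6, which elongates palmitate, ranged from 5.03 to 6.12 on water (median 5.39), from 6.08 to 7.22 on glucose (median 6.20) and from 5.94 to 7.13 on fructose (median 6.34). Its difference was 0.91 ± 0.22 (adjusted p = 0.04), with 7 of 12 sugar arrays above the highest water array. Mttp, the transfer protein that loads lipid onto lipoproteins, ranged from 3.91 to 4.07 on water (median 4.01), from 4.16 to 4.31 on glucose (median 4.21) and from 4.10 to 4.38 on fructose (median 4.24). The rise of Mttp was only 0.23 ± 0.056 (adjusted p = 0.0395), but all 12 sugar arrays lay above the water arrays. Mttp was not called with the mean of all its probes.

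**Figure D2:**
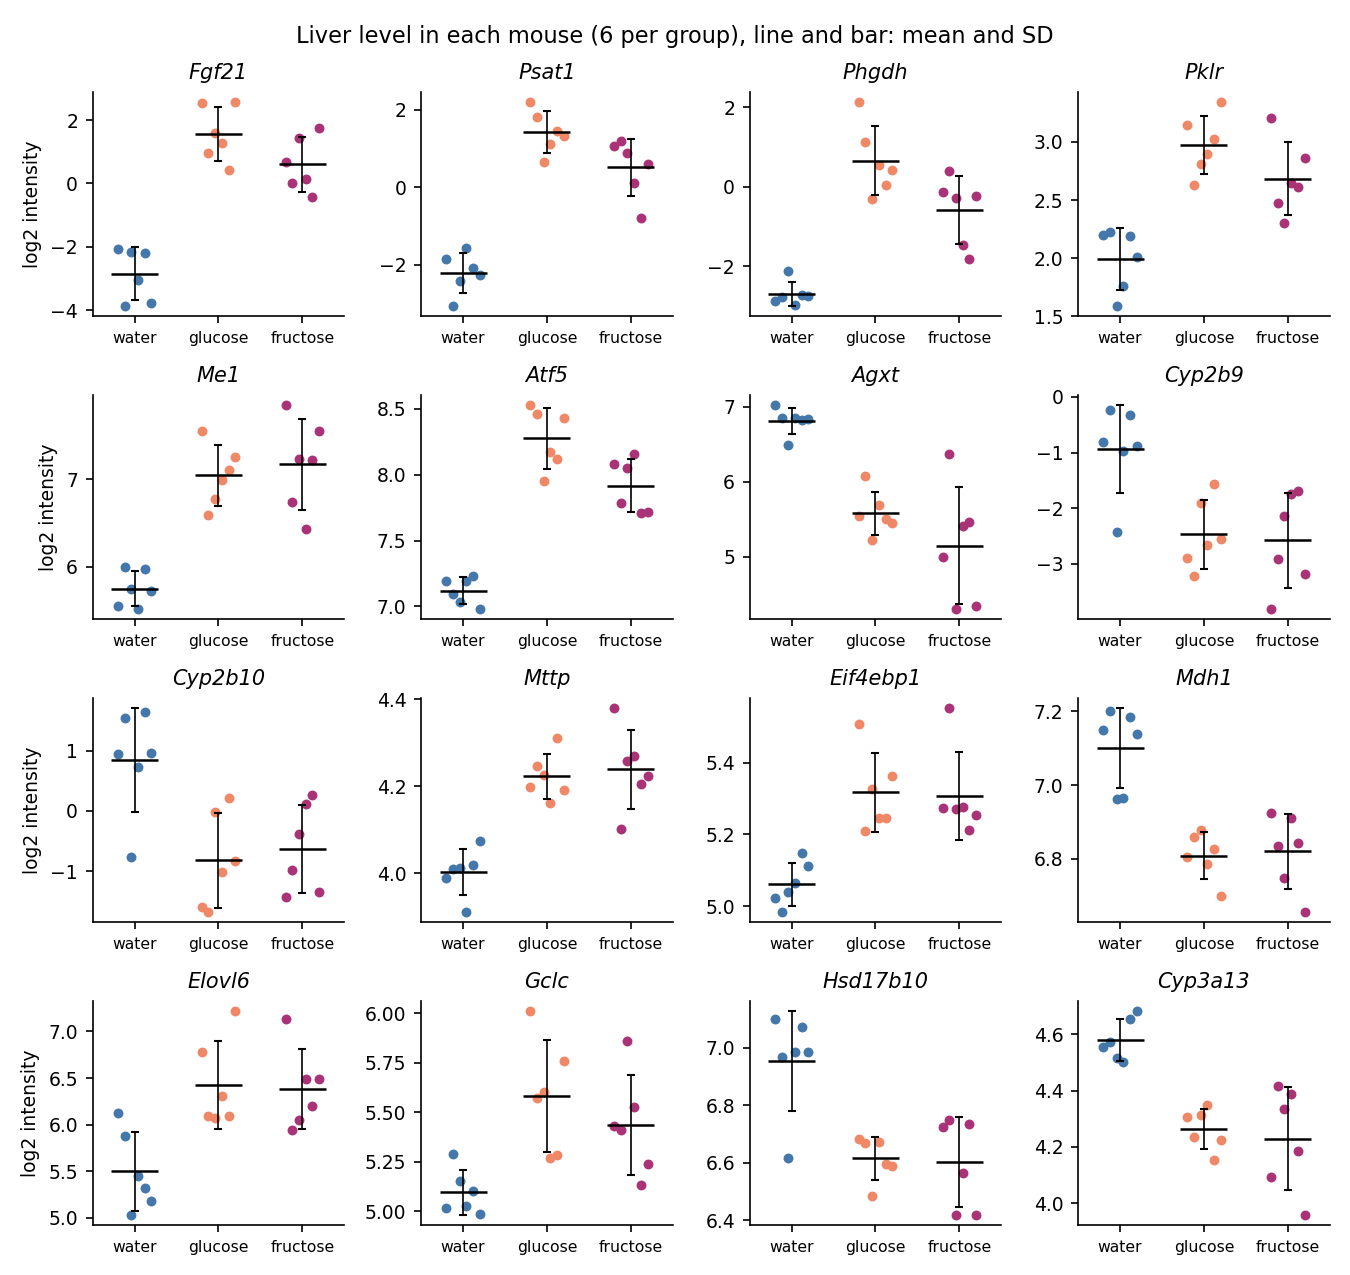
Log2 intensity relative to the array's 75th percentile (vertical, own scale per gene) in each of 6 mice on water, glucose or fructose for 16 genes; lines are means and bars are SD. In Fgf21, Psat1, Phgdh, Pklr, Me1, Atf5, Mttp and Eif4ebp1 all 12 sugar-fed mice lie above the 6 water-fed mice, and in Agxt, Mdh1 and Cyp3a13 all lie below.

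Many of the named falls were in enzymes of amino acid and drug metabolism. Agxt, which converts glyoxylate to glycine in peroxisomes, had lowest, median and highest values of 6.49, 6.85 and 7.02 on water, of 5.23, 5.52 and 6.08 on glucose, and of 4.30, 5.21 and 6.37 on fructose. Every sugar-fed mouse was below every water-fed mouse, and the difference was -1.45 ± 0.21 (adjusted p = 0.000575). Of 25 measured genes of the urea cycle and amino acid breakdown, 8 fell and none rose, all 25 differences were negative and the median was -0.33, against 0.851% falls over all genes and a median of -0.0078. Ass1 of the urea cycle fell by 0.47 ± 0.065 (adjusted p = 0.000324), from between 9.26 and 9.49 to between 8.73 and 9.26, with all sugar arrays below the water arrays before rounding. Cps1, the entry step of the cycle, fell by 0.37 ± 0.084, and Otc, the step after it, by 0.33 ± 0.078 (adjusted p = 0.0364) as a call of the pooled comparison alone. Otc ranged from 6.14 to 6.33 on water and from 5.64 to 6.16 on sugar, with 11 of 12 sugar arrays below the water arrays. Hpd of tyrosine breakdown, Sds, which deaminates serine, and Gpt, alanine aminotransferase, fell by 0.52 ± 0.11, 0.60 ± 0.13 and 0.45 ± 0.091.

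Of 14 measured genes of xenobiotic metabolism 6 fell and none rose (median -0.26), and 3 of the 6 were called in the pooled comparison alone. Over all genes tested 0.851% fell, and 0.334% were falls of the pooled comparison alone. The list holds Cyp2b10, a cytochrome P450 known as a target of the nuclear receptor CAR, but not its relative Cyp2b9. Cyp2b9 and Cyp2b10 had the largest falls of the genes called in the pooled comparison alone. Cyp2b9 had lowest, median and highest values of -2.43, -0.84 and -0.23 on water, of -3.21, -2.60 and -1.56 on glucose, and of -3.81, -2.52 and -1.70 on fructose. 1 water-fed mouse was low, so that 7 of 12 sugar arrays lay below the water range, and the difference was -1.58 ± 0.36 (adjusted p = 0.0274). Cyp2b10 ranged from -0.76 to 1.65 on water (median 0.95), from -1.68 to 0.21 on glucose (median -0.92) and from -1.43 to 0.27 on fructose (median -0.69), a difference of -1.56 ± 0.37 (adjusted p = 0.0331). The same overlap held there, with 7 of 12 sugar arrays below the lowest water array. The call of Cyp2b9 was lost without water mouse 1, 2, 4, 5 or 6, with differences of -1.88 to -1.44 over all mice left out 1 at a time. That of Cyp2b10 was lost without the same mice and without glucose mouse 1, fructose mouse 1 or fructose mouse 6, with differences of -1.89 to -1.40. Both genes have near-identical relatives, so a probe may read more than 1 of them.

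Cyp2c50, Cyp2c54 and Cyp1a2 fell by 0.50 ± 0.10, 0.53 ± 0.11 and 0.48 ± 0.099, and for the Cyp2c genes the same doubt about relatives applies. Each was called with glucose and not with fructose. Cyp2c54 ranged from 6.58 to 7.27 on water, from 6.02 to 6.49 on glucose and from 6.39 to 7.17 on fructose. Cyp3a13 ranged from 4.50 to 4.68 on water, from 4.15 to 4.35 on glucose and from 3.96 to 4.42 on fructose. It was lower in every sugar-fed mouse, by 0.33 ± 0.075 (adjusted p = 0.026), and was called in the pooled comparison alone. Cyp2e1, which oxidises ethanol, showed one of the smallest called changes, -0.19 ± 0.048 (adjusted p = 0.0477). Nnmt, which methylates nicotinamide, fell by 1.18 ± 0.26 (adjusted p = 0.0218), from between 6.37 and 7.55 to between 4.69 and 7.18. Its call was lost without water mouse 2, 3, 4 or 6, with differences of -1.33 to -1.07 over all mice left out. Falls of 2-fold or more also met genes of neither kind. The long non-coding RNA Lncbate1 fell by 1.30 ± 0.26 (adjusted p = 0.0122), and its call held with any 1 fed mouse left out (-1.43 to -1.23). Cabp4, a calcium-binding protein, and Dct, an enzyme of pigment synthesis, fell by 1.1 ± 0.20 and 1.03 ± 0.22, neither with the mean of all its probes, and Dct not without water mouse 4 or 6. Of 18 endoplasmic reticulum chaperones 17 had negative differences (median -0.35) and 2 were called, Hspa5 with -0.58 ± 0.12 (adjusted p = 0.0164) and Hsp90b1 with -0.43 ± 0.098 (adjusted p = 0.0271). Over all genes 0.851% fell.

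The 126 genes called in the pooled comparison and in neither sugar alone comprised 46 rises (0.192% of the genes tested) and 80 falls (0.334%). Pooling both sugars lowered the median standard error over all genes from 0.114 for a single sugar to 0.0986, a ratio of 0.866 that the numbers of mice fix. The class was set by p-values near the threshold, so it is described and not tested. The adjusted p of these genes ranged from 0.0207 to 0.0496 in the pooled comparison, and their lowest adjusted p with a single sugar ranged from 0.0514 to 0.106. All 126 had an unadjusted p under 0.05 with glucose and with fructose alike, which follows from how the class is chosen. In this class 4 genes, 1 rise and 3 falls, had an adjusted p of 0.1 or more with each sugar. The median absolute difference of the 126 was 0.35, compared with 0.45 for the 262 other calls. An absolute difference under 0.25 was found for 7 of these rises and 12 of these falls, one of 0.25 to 0.5 for 23 and 53, one of 0.5 to 1 for 13 and 13, and a larger one for 3 and 2. Of the 126, 8 had no overlap between sugar and water, compared with 66 of the 262 other calls. Over all genes tested, all 12 sugar arrays lay above all 6 water arrays for 0.25% and below them for 0.167%. Separation is favoured among called genes, which were chosen from these same arrays. The 8 included Eif4ebp1, Mttp, Mdh1, Cyp3a13 and Ndufv3.

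The named rises of this class with the lowest p, all well above background on the 18 fed arrays, were of many kinds. Pitpnm1, a phosphatidylinositol transfer protein, ranged from 2.06 to 2.39 on water (median 2.19), from 2.45 to 2.81 on glucose (median 2.58) and from 2.29 to 2.90 on fructose (median 2.64). The difference of 0.40 ± 0.087 had the lowest adjusted p of the class (0.0207), and 11 of 12 sugar arrays lay above the water arrays. Vegfd, a growth factor for lymphatic vessels, rose by 0.65 ± 0.14, from between -1.21 and -0.73 to between -0.96 and 0.26. Asah1, the lysosomal acid ceramidase, rose by only 0.23 ± 0.052 (adjusted p = 0.0276), from between 2.06 and 2.18 to between 2.17 and 2.54. Slc38a5, an amino acid transporter for glutamine and glycine, rose by 0.86 ± 0.21, and the light-sensitive receptor family member Opn3 by 0.59 ± 0.14. Cadm1, a cell adhesion protein, rose by 0.28 ± 0.064, and Ssh2, a phosphatase that activates cofilin, by 0.25 ± 0.061, although other probes of Ssh2 gave down to -0.11. The zinc finger gene Zfp354c rose by 0.71 ± 0.17.

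Elane, neutrophil elastase, rose by 0.36 ± 0.084 (adjusted p = 0.03) and was the only one of 7 measured neutrophil markers to be called. The median of these markers was -0.035, and their summed linear level overlapped between water (3.42 to 4.66), glucose (3.91 to 5.79) and fructose (3.68 to 5.10). Here as elsewhere in whole liver, more cells of a type and more RNA per cell cannot be told apart.

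Further rises of the class belonged to lists. Both called members of 10 NRF2 targets were of it: Gclc, which makes the precursor of glutathione, rose by 0.41 ± 0.10 (adjusted p = 0.0427) and Ephx1, an epoxide hydrolase, by 0.47 ± 0.11 (adjusted p = 0.0397). Gclc ranged from 4.99 to 5.29 on water, from 5.27 to 6.01 on glucose and from 5.13 to 5.86 on fructose, so that 8 of 12 sugar arrays were above the water range, and Ephx1 had 11 of 12 above it. All 10 differences in the list were positive (median 0.21), and Gclm, the partner of Gclc, reached 0.27 ± 0.071 at an adjusted p of 0.0545. Of 16 clock genes 2 rose, both repressors of the clock loop: Nr1d2 by 0.40 ± 0.10 in the pooled comparison alone (adjusted p = 0.041) and Nr1d1 by 0.82 ± 0.20. All livers were taken at 1 clock time, so these data show a level and not a phase. Rrm2, a subunit of ribonucleotide reductase, was the only one of 15 cell cycle genes to be called, with 0.53 ± 0.13 (adjusted p = 0.0457).

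**Figure D3:**
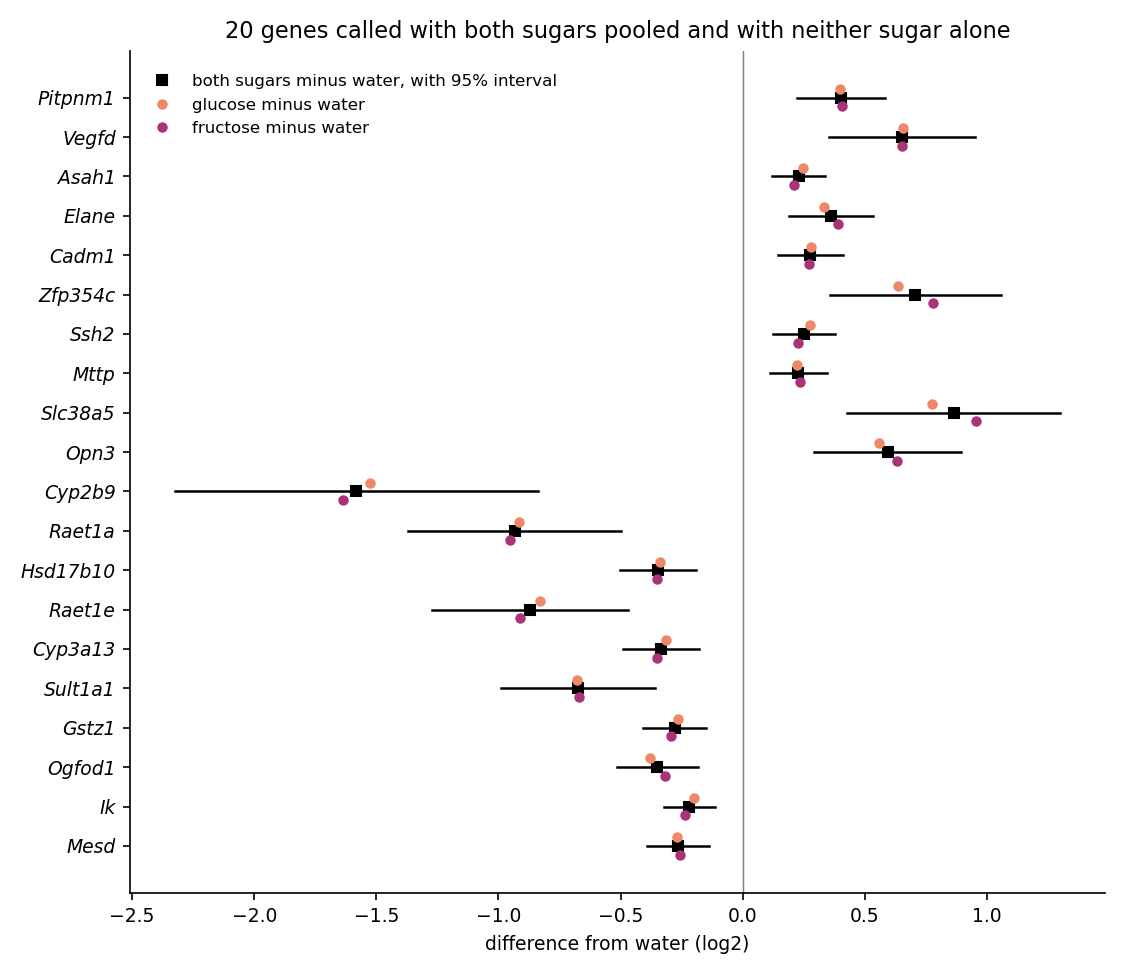
Difference from water on the log2 scale (horizontal) for the 10 rises and 10 falls with the lowest p among genes called in the pooled comparison alone, with a symbol and well above background on all 18 arrays; black squares and lines are the pooled difference with its 95% interval, and coloured points are glucose and fructose by themselves. Both coloured points of each gene lie inside the pooled interval, which follows from how the class is chosen. For Cyp2b9 the pooled interval runs from -2.33 to -0.84.

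The falls of the class included enzymes of mitochondria and of the shuttle that feeds them. Mdh1, cytosolic malate dehydrogenase of the malate shuttle, had lowest, median and highest values of 6.96, 7.14 and 7.20 on water, of 6.70, 6.82 and 6.88 on glucose, and of 6.66, 6.84 and 6.92 on fructose. No sugar-fed mouse reached the water range, and the difference was -0.29 ± 0.070 (adjusted p = 0.0402). Mdh1 was not called with the mean of all its probes. Hsd17b10, a mitochondrial dehydrogenase of isoleucine breakdown, ranged from 6.62 to 7.10 on water (median 6.98), from 6.48 to 6.68 on glucose (median 6.63) and from 6.42 to 6.75 on fructose (median 6.64). The lowest water-fed mouse stood apart from the other 5, and 6 of 12 sugar arrays lay below it, with a difference of -0.35 ± 0.075 (adjusted p = 0.0214). Sdhb, the iron-sulfur subunit of succinate dehydrogenase, fell by 0.26 ± 0.067 (adjusted p = 0.0494), and Ndufv3, a subunit of complex I, by 0.16 ± 0.042 (adjusted p = 0.0457). Gstz1, an enzyme of tyrosine breakdown, fell by 0.28 ± 0.063 (adjusted p = 0.0265).

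Sult1a1, a phenol sulfotransferase, ranged from 6.71 to 7.14 on water, from 5.90 to 6.97 on glucose and from 5.78 to 6.79 on fructose. It fell by 0.67 ± 0.15 (adjusted p = 0.0263), and both of its probes gave -0.68 to -0.67. Slc27a5, which activates bile acids, fell by 0.22 ± 0.054, and Slc13a2, a sodium-dependent carrier of citrate, succinate and related acids, by 0.98 ± 0.25 (adjusted p = 0.0482). Raet1a and Raet1e, ligands of the receptor NKG2D of lymphocytes, fell by 0.93 ± 0.21 (adjusted p = 0.0265) and 0.87 ± 0.19 (adjusted p = 0.024). Raet1a ranged from -0.87 to 0.63 on water and from -1.56 to -0.42 on sugar, with 9 of 12 sugar arrays below the water range, and its call was lost without water mouse 1, 2, 4 or 5 (differences of -1.07 to -0.77 over all mice left out). These genes are near-identical members of 1 family, so they are uncertain as separate observations. Ogfod1, which hydroxylates a ribosomal protein, the splicing factor Ik and the chaperone Mesd fell by 0.35 ± 0.080, 0.22 ± 0.050 and 0.26 ± 0.061, and of the 3 probes of Ogfod1 the highest gave 0.11.

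The smallest called changes lay near 0.15 to 0.20. Ybx3, an RNA-binding protein, ranged from 3.40 to 3.54 on water, from 3.53 to 3.69 on glucose and from 3.54 to 3.71 on fructose, a rise of 0.15 ± 0.038 (adjusted p = 0.0456) that left 11 of 12 sugar arrays above the water range. Lmf2, a lipase maturation factor, ranged from 0.85 to 0.98 on water and from 1.02 to 1.17 on each sugar. The groups of Lmf2 did not overlap, with a rise of 0.19 ± 0.038 (adjusted p = 0.0113), and this call held with any 1 fed mouse left out. Cpne1, Hax1 and Txnl4a rose by 0.17 ± 0.044, 0.18 ± 0.046 and 0.19 ± 0.043. On the other side, Cox8a of cytochrome oxidase ranged from 8.54 to 8.59 on water, from 8.24 to 8.40 on glucose and from 8.40 to 8.53 on fructose. All sugar arrays lay below the water arrays, and the fall was 0.16 ± 0.035 (adjusted p = 0.0248). Uqcrh of complex III and Lman2, a cargo receptor for glycoproteins, fell by 0.16 ± 0.038 and 0.18 ± 0.044.

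Falls were concentrated among the brightest probes. In the decile of genes with the highest level on water, 102 of 204 falls and 42 of 80 falls of the pooled comparison alone were found, but 23 of 184 rises and 6 of 46. All genes of that decile together had a median difference of -0.036, with 63.8% below 0. After quantile normalization, which forces the arrays to a common distribution, the same genes had a median of 0.0036 with 49% below 0. Of the 30 falls under 0.25, 11 were still called after quantile normalization and 12 in the authors' deposited series table, compared with 15 and 15 of the 17 rises of that size. All 47 of these small changes kept their sign under both. Median centring, where the median of that decile was -0.032, called none of the 47. At 1 or more on the log2 scale, all 30 rises and 9 falls were still called after quantile normalization. Median centring kept 29 of these rises and 9 falls, and normexp background correction kept 24 rises and 9 falls. The values deposited by the authors kept 27 rises and 8 falls.

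**Figure D4:**
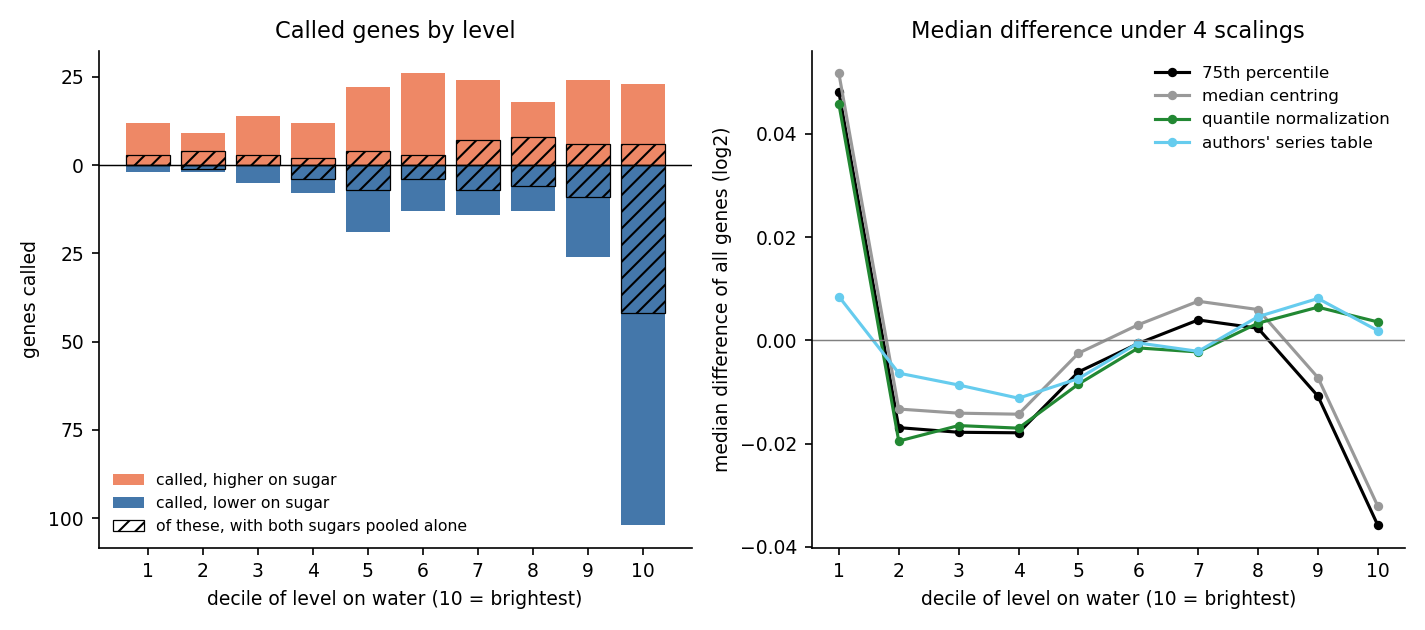
Left, number of called genes (vertical, rises upward and falls downward, hatched for the pooled comparison alone) by decile of the level on water; right, median difference of all genes of each decile (log2) under 4 scalings of the arrays. The brightest decile holds 102 falls and 23 rises, and its median of -0.036 is 0.0036 after quantile normalization.

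The other lists held few called members or none. Of 19 genes of fatty acid oxidation 18 had negative differences (median -0.11) and none was called, and of 23 genes of cholesterol synthesis 20 had positive differences (median 0.19) while the only call was a fall, that of Ebp, a sterol isomerase, by 0.24 ± 0.046 (adjusted p = 0.0122). Of 24 PPARA targets only Fgf21 was called. No gene was called among 12 of glycogen metabolism, 6 of ketone body synthesis, 14 heat shock proteins, 11 glucocorticoid targets, 12 male-biased genes, 14 interferon-response genes and 31 of the proteasome. Exceptions to this were 2 glycogen genes and 1 male-biased gene that rose after quantile normalization and in the authors' deposited series table, and 1 glycogen gene that rose and 1 interferon-response gene that fell with normexp. In 3 further lists a single gene or a pair was called: Ulk1, a kinase that starts autophagy, rose by 0.53 ± 0.12, the iron hormone gene Hamp fell by 0.50 ± 0.12 among 17 acute phase genes, and Igf1 and Igfbp2 of the growth hormone axis fell by 0.24 ± 0.057 and 0.37 ± 0.073. In the citric acid cycle list of 17 genes 2 fell, Sdhb among them.

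The 8 measured hepatocyte markers were well above background on all 18 arrays, as the labelled tissue requires, and their differences were all negative (median -0.10, none called). Their summed linear level lay between 7265 and 8679 on water, between 7090 and 7765 on glucose and between 6710 and 7233 on fructose. The part of this difference in the falls of bright genes was not tested. The median was nearer to 0 under other scalings, -0.0038 after quantile normalization (6 of 8 negative) and -0.017 in the authors' deposited series table (4 of 8 negative). Of 11 periportal markers 4 fell (median -0.23) and of 10 pericentral markers 2 fell (median -0.16), and these lists share Cps1, Ass1, Sds, Cyp1a2 and Cyp2e1 with metabolic lists above. With median centring, the calls fell to 5 rises among ChREBP targets, 3 in fatty acid synthesis, 4 falls each in amino acid breakdown and xenobiotic metabolism, and 0 among NRF2 targets and clock genes, while each of these medians kept its sign under every scaling. No marker of Kupffer, stellate, sinusoidal endothelial, bile duct, lymphoid, red, fat, pancreatic acinar or muscle cells was called. Of the lymphocyte markers 7 of 8 had negative differences (median -0.10), and their summed level lay between 40.7 and 51.0 on water, between 33.8 and 46.2 on glucose and between 23.5 and 41.1 on fructose.

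**Figure D5:**
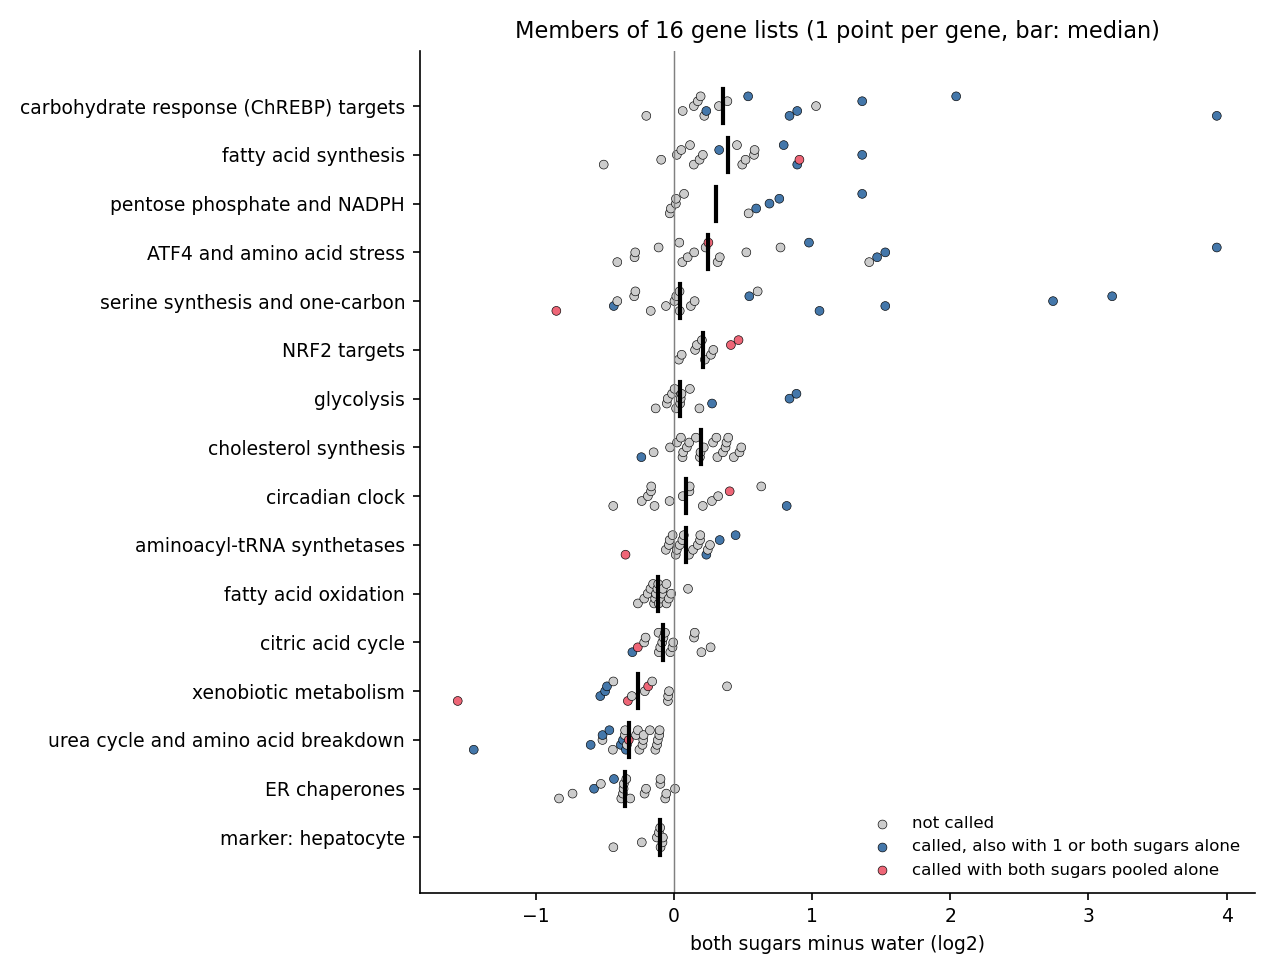
Difference between both sugars and water (log2, horizontal) for each measured member of 16 gene lists (rows); grey points were not called, blue were called also with at least 1 sugar alone, red in the pooled comparison alone, and bars are medians. The median is 0.36 for ChREBP targets and -0.33 for the urea cycle and amino acid breakdown, against -0.0078 over all genes.

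Some genes central to sugar metabolism were not called with 12 sugar-fed mice. Fasn, fatty acid synthase, differed by 0.58 with a 95% interval from 0.24 to 0.93 (adjusted p = 0.0728), and 10 of 12 sugar arrays lay above the water range of 8.67 to 9.45. Fasn stood close to the threshold and was called in 8 of 36 alternatives, with adjusted p from 0.0246 to 0.0491 in those, and the uncalled Asns and Gclm in 7 and 8. Scd1, the desaturase, differed by 0.46 (0.03 to 0.88, adjusted p = 0.282), and Txnip, a ChREBP target, by 0.33 (0.02 to 0.63, adjusted p = 0.292). For Mlxipl, the gene of ChREBP itself, the difference was 0.06 (-0.10 to 0.23, adjusted p = 0.774), and for Srebf1, the gene of the lipogenic factor SREBP1, it was 0.02 (-0.36 to 0.40, adjusted p = 0.976). G6pc and Pck1, which release and make glucose, differed by 0.17 (-0.22 to 0.57) and -0.23 (-0.59 to 0.14). Cyp7a1, which starts bile acid synthesis from cholesterol, differed by -0.79 (-1.45 to -0.14, adjusted p = 0.219), and was called in 1 of 36 alternatives, the fit without fasted mice (adjusted p = 0.0165). The pooled value of Cyp7a1 averages unlike groups: all glucose-fed mice (2.18 to 2.97) lay below the water range (3.69 to 4.43), while the fructose-fed mice (3.19 to 4.23) overlapped it. The intervals show what 18 fed mice could not resolve: for Srebf1 a change of 0.3 in either direction lies within it, and for Mlxipl one of 0.2 upward.

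The difference between the drinks was tested for every gene as well. No gene differed between fructose and glucose at an adjusted p under 0.05 in limma (lowest adjusted p = 0.0672), and 1869 of 23966 genes (7.8%) had an unadjusted p under 0.05. Over all genes, the count in the alternatives was 6 with array weights, 4 with normexp background correction and 2 with a mean trend in eBayes. It was 2 with the mean of all probes of a gene, and 1 each without the filter on dim probes and without the fasted mice. Taking the 12 sugar mice as 1 group allows no such test. The count was 3 without glucose mouse 3, 1 each without water mouse 3 and fructose mouse 2, and 0 in the other alternatives. Of the 388 pooled calls 79 had such an unadjusted p, and none of the 126 genes called in the pooled comparison alone did, which follows from how that class is chosen. For all called genes the 95% interval of fructose minus glucose reached a median of 0.22 to either side, so smaller differences between the drinks would go unseen. Psat1 and Phgdh had intervals wholly below 0, from -1.55 to -0.27 and from -1.97 to -0.51, without a call.

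Many calls lay close to the threshold and were lost with 1 mouse fewer. Of the 388 genes, 100 (67 rises and 33 falls) stayed called with any 1 of the 18 fed mice left out, and none of the 126 called in the pooled comparison alone did, whose adjusted p all lay between 0.0207 and 0.0496. By size, 4 of 47 calls under 0.25, 36 of 195 from 0.25 to 0.5, 35 of 107 from 0.5 to 1 and 25 of 39 of 1 or more stayed. The difference of a lost call could stay of like size: with any 1 mouse left out, Eif4ebp1 ranged from 0.23 to 0.27 and Mttp from 0.21 to 0.24. The number called was 118 without water mouse 4, 174 without water mouse 2, 178 without water mouse 6, 239 without water mouse 5, 249 without water mouse 1, 245 without fructose mouse 1 and 246 without glucose mouse 1. It was 539 without fructose mouse 5. Falls alone numbered 125 without fructose mouse 3 and 121 without fructose mouse 6, and rises of the pooled comparison alone 29 without water mouse 3. The arrays came from 3 slides with 2 mice of each group on each. Within a slide, where 4 sugar-fed mice faced 2 water-fed mice, limma called no gene, while 2089, 1743 and 2334 genes had an unadjusted p under 0.05, and 422 genes were called with slide as a block over all arrays. Of the 388 calls, 387 had the same sign in all 3 slides, and so did 125 of the 126, counts that are favoured because the genes were called from these same arrays.

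The 18 arrays were alike in the number of probes above background and in correlation, and less so in signal. The 75th percentile of the log2 signal, by which arrays were scaled, was 7.958 to 8.414 on water. It was 8.187 to 8.297 on glucose and 8.281 to 8.445 on fructose. Between 32516 and 36274 probes were well above background, with overlapping ranges for water (32516 to 36109), glucose (33686 to 35582) and fructose (33066 to 36274), and arrays of 1 fed group correlated at 0.990 to 0.995 across genes. No label states that the mice were housed apart or in how many cages, so p-values measure the spread between these animals.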

How the data were processed

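Each scanner file, per the file headers, came from Agilent Feature Extraction 10.10.1.1, and the authors deposited spot intensity values that were background-subtracted and detrended within the array but not normalized between arrays. For 35967 probes the authors deposited processed log2 values as well (column medians 7.3834 to 7.3902). Each column followed the median signal of its own array, on the log2 scale, with a correlation of at least 0.999852, the scaling stays unknown, and these values served as an alternative.

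Control spots and outlier-flagged spots were left out. The log2 processed intensity was averaged per probe, and the 75th percentile of each array's probes was subtracted. Probes well above background on at least 6 of 24 arrays were kept, and a gene took its brightest kept probe, giving 23966 genes. Names came from RefSeq (GRCm38.p6). There, 15655 genes matched by accession, 1736 by symbol and 103 by synonym, while 6472 kept the array's name. Probe coordinates of the array design are on mm9 and are not printed.

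4 group means were fitted over all 24 arrays (limma 3.58.1, lmFit and eBayes, R 4.3.3), with Benjamini-Hochberg adjustment over all genes and a threshold of 0.05. The limma comparison was tested on simulated data with known changes. The comparison, the 44 gene lists (559 of 576 symbols measured, 2 through a synonym) and the alternatives were chosen with earlier results of these data known. Genes named have a symbol and were well above background on the arrays of the higher side (largest changes) or on all 18: the 10 largest rises and falls, the 10 rises and falls of lowest p called in the pooled comparison alone, the 5 smallest of each, up to 4 members per list and a panel, and not all are given. Asns, Bhmt, Otc, Eif4ebp1, Psph, Fam124a and the genes of the closing families are named outside that rule or after their values were seen. For a gene with no water array above background, each water array was raised to at least its dimmest passing probe, which makes the fold a lower bound. Precision depends on the number of arrays and on the spread of each gene, and the pooled standard error ranged from 0.0319 to 1.66 over all genes. Alternatives covered scaling, background, filter, probe summary, blocks, weights, eBayes options, thresholds and each mouse left out.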

Additional observations from a re-analysis of the deposited data

Results flagged for a closer look

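Of 354 groups of 6 mice examined (118 genes, 3 fed groups), 19 (5.37%) had an array set apart from the other 5 by more than Dixon's critical share of the group's range, where chance gives about 5%, so the number is near what chance gives. Values are log2 intensities.

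On water, the highest array was apart for Phgdh (-2.13, next -2.72), Txnip (4.39), Cyp2e1 (10.2), Bhmt (9.48) and Sds (5.12). The lowest array was apart for Cyp2b9 (-2.43, next -0.97), Hsd17b10 (6.62, next 6.97), Cpne1 (2.22) and Hamp (8.18). Cyp2b9, Hsd17b10 and Phgdh were apart in water mouse 3, and Cyp2e1, Bhmt and Hamp in water mouse 6.

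On glucose, the lowest array was apart for Nnmt (4.69, next 5.87), Sdhb (7.36), Lman2 (5.55) and Cyp1a2 (3.49), and the highest for Psph (2.26) and Sds (4.57). On fructose, the lowest array was apart for Aldh1l2 (-4.95, next -3.68) and Hax1 (5.68), both in fructose mouse 5, and the highest for Txnip (4.91) and Eif4ebp1 (5.55, next 5.28).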

How the results depend on the processing

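The main counts were 184 rises and 204 falls, and 46 and 80 in the pooled comparison alone. Rises numbered 89 with median centring, 108 without the filter on dim probes, 305 in the authors' series table and 354 with array weights. Falls numbered 56 with median centring, 86 without the filter, 307 with normexp, 338 with a mean trend and 438 with array weights. In the pooled comparison alone, rises numbered 21, 28 and 82 with median centring, no filter and array weights. Such falls numbered 20 with median centring, 39 without the filter, 49 with quantile normalization and 51 with the mean of all probes. With 0.1 as the single-sugar threshold 1 rise and 3 falls remained in that class, and with 0.01 as the pooled threshold 0 and 0. Within each slide all counts were 0. Between the sugars, 1 pooled call differed with normexp. With the mean of all kept probes of a gene, 288 of the 388 calls were still called, and 76 of the 126 of the pooled comparison alone. Among those lost were Mttp, Mdh1, Otc, Bhmt, Sds, Cadm1, Vegfd and Igf1.

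With 1 mouse left out, rises ranged from 74 to 258, falls from 44 to 281, and in the pooled comparison alone from 12 to 83 and from 13 to 129. A percentile over spots, chosen after seeing the data, gave 205 and 261. Same-numbered mice gave no clear pairing (mean correlation 0.0334, 9 of 36 pairs above 0.1), and a replicate block gave 172 rises and 159 falls, and 50 and 60 in the pooled comparison alone. No named call changed sign. Uncalled genes did: G6pc (-0.0943 in slide 1, -0.125 in slide 3), Srebf1 (-0.0393 in slide 2, -0.129 in slide 3, -0.0396 to 0.129 with 1 mouse left out), Mlxipl (-0.0526 in slide 2) and Pck1 (0.245 in slide 3). The causes were not tested. Signal over background limits dim genes such as Fut1 and Aldh1l2.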

Other observations

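The subunits of oxidative phosphorylation were examined as families by name after the called genes had been seen, so their counts are descriptions. Of 94 measured subunits 88 had negative differences, with a median of -0.12, and 8 fell while 1 rose, together 9.57% against 1.62% over all genes. The falls were Ndufs3 (-0.22 ± 0.054) and Ndufv3 of complex I, Sdhb of complex II, Uqcrh of complex III, Cox7b (-0.22 ± 0.054) and Cox8a of complex IV, and the mitochondrially encoded ND2 (-0.19 ± 0.042) and ND4L (-0.26 ± 0.053). The rise was that of Cox6a2 (0.67 ± 0.13), a form of the subunit known from heart and skeletal muscle. Cox6a2 was called with glucose and not with fructose. It ranged from -2.836 to -2.185 on water, from -1.907 to -0.897 on glucose and from -2.558 to -1.997 on fructose. All 17 subunits of ATP synthase had negative differences and none was called. The 8 subunits that fell have bright probes, with water means from 6.38 to 8.56, while that of Cox6a2 was -2.56. After quantile normalization the median of the subunits was -0.077, with 3 falls and 1 rise. In the authors' series table it was -0.079, with 4 falls and 1 rise. Median centring gave a median of -0.12 with 1 rise and no fall. The 81 measured cytosolic ribosomal protein genes had a median of 0.021 and the 78 mitochondrial ones of -0.061, with no call in either.

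By the same kind of grouping, 11 of 79 measured cytochrome P450 genes fell and 1 rose, together 15.2% against 1.62% over all genes (0.851% falls and 0.768% rises). The rise was Cyp39a1 (0.78 ± 0.18), an oxysterol hydroxylase. Among 309 solute carriers 8 rose and 10 fell, together 5.83%, with a median of -0.0064. The amino acid carriers Slc7a7 (0.69 ± 0.076) and Slc6a9 (0.41 ± 0.075) rose, and Slc38a4 (-0.34 ± 0.052), Slc7a2 (-0.44 ± 0.092) and Slc43a1 (-0.93 ± 0.19) fell, although the second probe of Slc43a1 gave -0.03. Slc2a4, the insulin-regulated glucose transporter of muscle and fat, rose by 1.17 ± 0.26 (not called without water mouse 4 or 6), and Slc17a1 and Slc17a4, phosphate and urate carriers whose genes lie within 100 kb of each other, rose by 0.63 ± 0.14 and 0.87 ± 0.19.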
